A study of Caenorhabditis elegans with 2 samples.

Results

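The small nuclear RNA (snRNA) genes described here are those for the U2, U5 and U6 RNAs of *Caenorhabditis elegans*, together with a U4 gene and 21 annotated snRNA genes that could not be placed in a family by an exact sequence element. They were taken by annotation alone: 74 of the 129 genes with the biotype snRNA in Ensembl WBcel235, out of 46926 annotated genes, were left once the listed U1, U4, SmY and spliced leader genes had been set aside by symbol. SNPC-4 was mapped in them by chromatin immunoprecipitation and sequencing (ChIP-seq) in 2 biological replicates of whole young adult worms, and there was no other group. The worms were strain OP179, with the *unc-119*(ed3) allele on chromosome III and the integrated transgene wgIs179, which expresses SNPC-4 fused to GFP and FLAG at its C-terminus. They were pooled males and females of unknown age, the antibody is labelled snpc-4, and the values are an average over all tissues of the animal. No read counts were used, so the depth is unknown, and with a single group no test between groups could be made.

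U2, U4, U5 and U6 snRNAs are RNA components of the spliceosome. U2 pairs with the branch site of an intron, U5 holds the exon ends in place, U4 keeps U6 inactive until the spliceosome is activated, and U6 takes part in the catalytic centre. SNPC-4 is the worm counterpart of the largest subunit of SNAPc, the complex that binds the proximal sequence element upstream of snRNA genes, of which U6 is transcribed by RNA polymerase III and the others by RNA polymerase II.

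A conserved element in the RNA placed 19 genes in the U2 family, 11 in the U5 family, 22 in the U6 family and 1, *F10D2.13*, in the U4 family. Within families the annotated RNAs were nearly alike, with a median pairwise identity of 98.9% for U2, 95.1% for U5 and 99.0% for U6, while the 100 bases before the 5′ end shared only 75%, 64% and 60%. The elements are those that pair with the 5′ splice site in U6, contact exons in the loop of U5 and pair with the branch site in U2. The RNA of the most strongly marked U2 gene, *Y57G11C.35* at chrIV:14764848-14765034 (minus strand), is shown from the reference sequence (RefSeq, WBcel235, which is ce11), with its element in capitals.
Y57G11C.35: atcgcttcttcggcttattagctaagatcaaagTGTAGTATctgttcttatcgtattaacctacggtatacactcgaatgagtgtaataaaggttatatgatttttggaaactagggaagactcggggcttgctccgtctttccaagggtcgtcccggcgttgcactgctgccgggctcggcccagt
An Sm site, the stretch ATTTTTG, with or without 1 more T, on which the Sm protein ring assembles, was present in 18 of 19 U2 genes, 10 of 11 U5 genes, the U4 gene and 0 of 22 U6 genes. The genes without it were *W07G1.24* of the U2 family, which is 149 bases long against 185 to 187 for the others, and *Y69A2AR.36* of the U5 family. At the 3′ end, in the last 6 bases of the gene and the 10 that follow, a run of 4 T, the usual stop signal of RNA polymerase III, occurred in 21 of 22 U6 genes and in none of the U2, U4 and U5 genes. The exception was *F32D1.12*. Counted only after the annotated 3′ end, the run occurred in 6 of the 22 U6 genes.

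SNPC-4 summits stood next to the 5′ end of nearly all U5 genes, most U2 genes and a minority of U6 genes. A summit of the authors' thresholded list lay within 200 bp of the 5′ end at 36 of the 74 genes (48.6%, Wilson 95% interval 37.6 to 59.8, which covers counting error only), against 4.87% of all annotated genes and 2.59% of protein-coding genes. Genes with such a summit are called marked. These were 36 different peaks, so no peak counted for more than 1 of the genes. By family they were 13 of 19 U2 genes, 10 of 11 U5 genes, 8 of 22 U6 genes, the U4 gene and 4 of the 21 genes without a family. Of the snRNA classes set aside, the shares were 90.9% (10 of 11 listed U1 entries), 75% (3 of 4 U4 genes on chromosome V) and 70% (7 of 10 SmY genes). The share of the 30 spliced leader genes, also set aside, was not counted. The 10 U1 entries hold only 8 different peaks, because *mir-1831* lies within *sup-39* and *T27E4.22* overlaps *T27E4.12*, and each pair shares its peak. Genes of a family share sequence and are not independent samples, so the shares are given without a test.

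**Figure D1:**
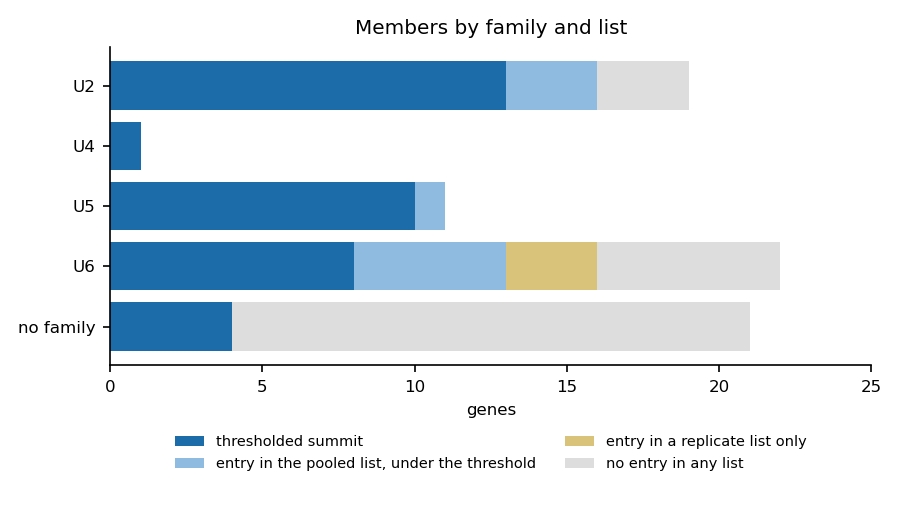
Number of genes (horizontal axis) in each snRNA family (vertical axis), split by the strictest list that had a summit within 200 bp of the 5′ end. Of the U5 genes 10 of 11 had a thresholded summit, while 6 of 22 U6 genes and 17 of 21 genes without a family had no entry in any list.

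The lists of lower stringency separated the genes further. The pooled list given to the irreproducible discovery rate (IDR) step, labelled as peaks and background, had an entry at 45 of the 74 genes (60.8%) against 30.3% of all genes. The list of replicate 1 had one at 43 genes (58.1%) against 29.4%, and that of replicate 2 at 45 genes (60.8%) against 27.2%. Both replicate lists had an entry at 35 of the 36 genes with a thresholded summit, the exception being *W04G5.11* in replicate 2. Of all 2284 annotated genes with a thresholded summit, 1950 had an entry in both. The replicate lists were input of the IDR step, so this overlap is no independent check. At 26 of the 74 genes no list had any entry.

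The signal, the authors' enrichment value for each peak, was high where a gene was marked. Over the 36 genes its median was 218, with a range of 55.4 to 1493, where the 2345 peaks of the thresholded list had a median of 60.9 and a range of 41.5 to 3238. The signal was above the list's median at 34 of the 36, and 9 of them stood among the 100 strongest peaks and 28 among the 500 strongest. In the replicates, whose lists have their own scale, the median was 122 in replicate 1 and 88.6 in replicate 2. Replicate 1 was the higher at 25 of the 35 genes with both values (71.4%), as it was at 64.6% of all genes with a thresholded summit and both entries and at 54.1% of those off chromosome IV.

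**Figure D2:**
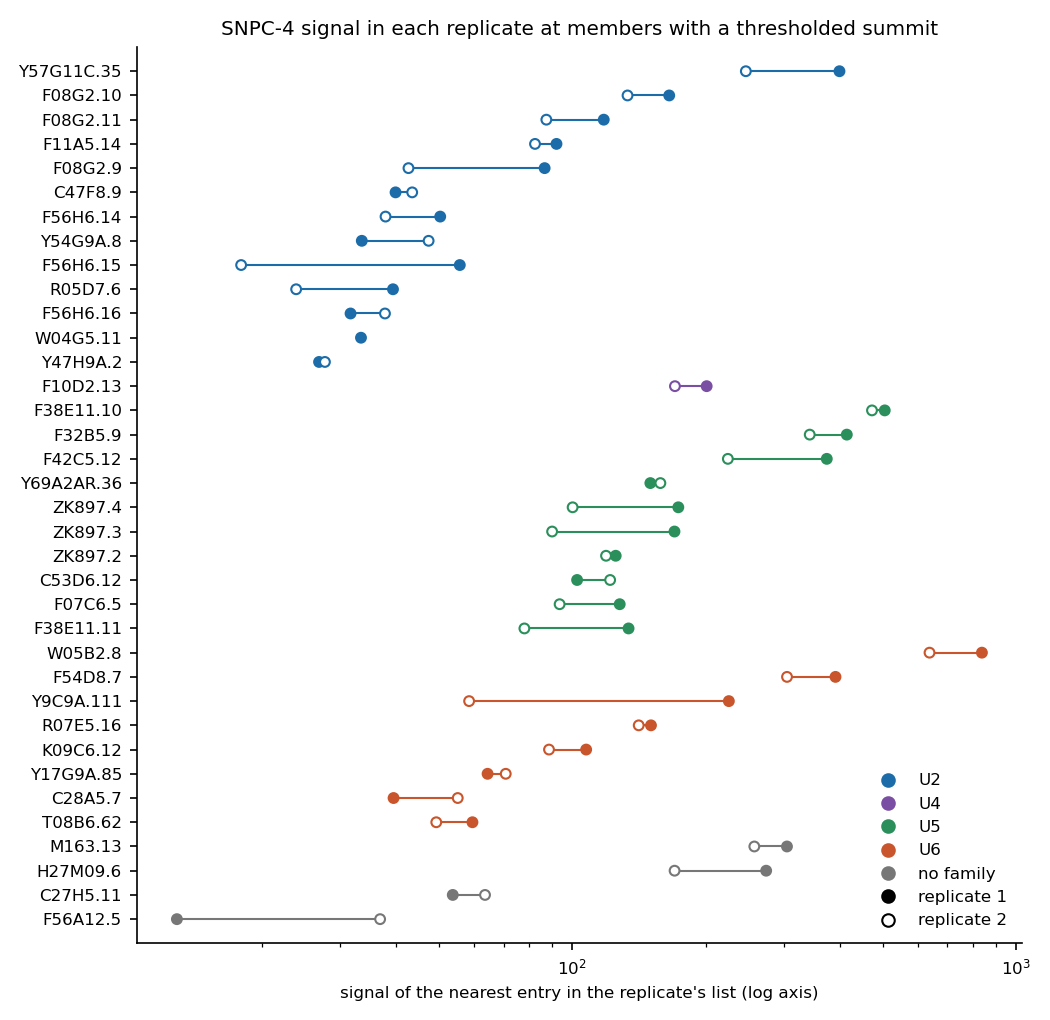
Signal of the nearest entry in the list of replicate 1 (filled) and replicate 2 (open) on a log axis, for the 36 genes with a thresholded summit, ordered by family and by thresholded signal. The values run from 12.9 at *F56A12.5* to 837 at *W05B2.8*, and *W04G5.11* has no entry in replicate 2.

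U6 genes held both the strongest peak and most of the unmarked family members. *W05B2.8*, in an intron of *dhc-4* on its strand (III), had a thresholded signal of 1493, with 837 in replicate 1 and 638 in replicate 2, with the summit 54 bases upstream of the 5′ end. *F54D8.7*, outside protein-coding genes (III), had 710.3, with 392 and 305 in replicates 1 and 2 and its summit 62 bases upstream. *Y9C9A.111*, in an intron of *Y9C9A.8* (IV), had 332, with 225 in replicate 1 and 58.6 in replicate 2, whose summits lay 150 bases apart. *R07E5.16*, in an intron of *mpc-1* (III), had 289, with 150.4 and 141 in replicates 1 and 2. *K09C6.12*, overlapping an exon of *K09C6.2* (V), had 183, with 107 and 88.6 in replicates 1 and 2. *Y17G9A.85*, outside protein-coding genes (IV), had 130.5, with 64.4 and 70.8 in replicates 1 and 2. The other U6 genes with a thresholded summit, *C28A5.7* and *T08B6.62*, had 129.5 and 114.8, so that the family spanned a range of more than 10-fold. At all 8 the summit lay upstream, between 29 and 81 bases from the 5′ end with a median of 58.

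The remaining 14 U6 genes included 5 with an entry in the pooled list, all far under the threshold. *Y17G9A.90* had a pooled signal of 21.99, with 16.8 in replicate 1 and 12.97 in replicate 2. *K09B11.13* had 20.02 and was listed in replicate 2 alone, at 9.33. *K09B11.15* and *K09B11.16*, 2 copies in introns of *mam-3* (IV), shared a single pooled entry with a signal of 19.1 and an entry of 6.02 in replicate 2, while in replicate 1 only *K09B11.16* had one, at 9.42. These values can be set against the pooled list's own median of 11.3. *K09B11.14* had 6.70, and *F54C8.8*, *F54C8.9* and *F54C8.10*, 3 copies in introns of *F54C8.6* (III), had 2.89, 9.099 and 8.73 in a single replicate each. The 6 U6 genes with no entry were *K09B11.11*, *K09B11.12*, *F32D1.12*, *T20D3.12*, *T20D3.13* and *B0205.15*, all inside introns of protein-coding genes. The repeated copies in *mam-3* and *F54C8.6* made up 9 of the 14 U6 genes without a thresholded summit.

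The sequences before the 5′ ends showed what the marked U6 genes had in common. Each line gives the 100 bases up to the 5′ end, with capitals for TATATAA and for CCC and TGTC where they stand 6 bases apart. Shown are *W05B2.8* (chrIII:10989579-10989678, plus strand) and *F54D8.7* (chrIII:5080899-5080998, minus strand), the strongest of the family, *R07E5.16* (chrIII:4414085-4414184, plus strand), which was marked without the pair, *K09B11.16* (chrIV:13443645-13443744, plus strand), which stayed under the threshold, and *F36A4.23* (chrIV:4239660-4239759, plus strand), a gene with 98.0% RNA identity to *Y9C9A.111* but no entry in any list.
W05B2.8: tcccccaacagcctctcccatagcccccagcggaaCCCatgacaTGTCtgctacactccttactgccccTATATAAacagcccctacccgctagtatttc
F54D8.7: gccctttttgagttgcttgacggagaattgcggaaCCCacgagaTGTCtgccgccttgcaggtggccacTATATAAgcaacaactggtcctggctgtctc
R07E5.16: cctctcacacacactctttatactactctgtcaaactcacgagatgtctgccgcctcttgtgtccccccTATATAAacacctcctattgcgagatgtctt
K09B11.16: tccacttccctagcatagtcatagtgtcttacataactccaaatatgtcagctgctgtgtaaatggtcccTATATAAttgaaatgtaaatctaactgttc
F36A4.23: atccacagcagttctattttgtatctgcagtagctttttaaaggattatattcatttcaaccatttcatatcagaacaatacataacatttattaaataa
TATATAA, a form of the TATA box that in vertebrates directs RNA polymerase III to U6 genes, was sought on the gene's strand 40 to 15 bases upstream. It began 31 bases upstream in all 8 U6 genes with a thresholded summit, and 30 bases upstream in 7 of the 14 without one. Over the 74 genes it occurred in 16 (21.6%), against 0.946% of all genes, and 15 of the 16 were U6 genes. The shorter word TATAAA, which overlaps it where an A follows, occurred in 7 of the 8 marked U6 genes and in 1 of the 14 others, and in 9 of the 74 genes (12.2%) against 4.01% of all genes.

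The pair, CCC and then TGTC after 6 bases of any kind, was sought on the gene's strand in the same 100 bases. Only exact matches were counted. *R07E5.16*, counted as without the pair, has CTC in place of CCC before the 6 bases and TGTC. In U6 genes the CCC always began 65 bases upstream, and the pair occurred in 4 of the 8 marked genes and in 1 of the 14 others, *Y17G9A.90*. Of the 5 it is the gene that lacked TATATAA, and it had the highest pooled signal of the U6 genes under the threshold. Where both elements stood, at *W05B2.8*, *F54D8.7*, *Y17G9A.85* and *T08B6.62*, all 4 genes were marked, and of the 11 with TATATAA alone 4 were. The other 7 are the 6 copies in *mam-3* and *F54C8.10*. The copies in *mam-3* had 6.51 to 66.3% unique words upstream, so they may not be separate cases. *F54C8.10* had 85.8%, the same as the marked *C28A5.7*. At the 4 genes with both elements the summit lay 3 to 36 bases downstream of the first base of CCC.

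U5 genes were marked most regularly. *F38E11.10*, outside protein-coding genes (IV), had the highest signal of the family at 965, with 506 and 473 in replicates 1 and 2 and its summit 85 bases upstream. *F32B5.9*, in an intron of *cpz-1* on the opposite strand (I), had 749, with 415 and 343 in replicates 1 and 2. *F42C5.12*, in an intron of *F42C5.9* on the opposite strand (IV), had 621, with 374 and 224 in replicates 1 and 2. The next 7 genes lay close together, between 212 and 311, which is above the list's median in each case. *Y69A2AR.36*, the U5 gene without an Sm site, had 311, with 149.9 and 158 in replicates 1 and 2. *ZK897.4*, *ZK897.3* and *ZK897.2*, 3 copies in introns of *unc-31* on its strand, had 263, 254 and 247. Their values were 173, 169.9 and 125 in replicate 1, and 100.2, 90.1 and 119 in replicate 2, so that the copies did not keep an order between replicates. *C53D6.12*, *F07C6.5* and *F38E11.11* had 229.7, 225 and 212. *C53B4.9*, in an intron of *mltn-12* (IV), was the only U5 gene without a thresholded summit, with a pooled signal of 39.6, 21.7 in replicate 1 and 13.3 in replicate 2, although 90.3% of the 32-base words around its 5′ end are found at a single place in the genome.

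At 9 of the 10 marked U5 genes the summit lay 24 to 85 bases upstream, and at *ZK897.4* it lay 47 bases downstream, inside the RNA. The pair occurred in 6 of the 11 genes, with CCC 54 to 56 bases upstream, and all 6 were marked, as were 4 of the 5 without it. The upstream sequences of *Y69A2AR.36* (chrIV:2655186-2655285, minus strand), *F38E11.10* (chrIV:9444542-9444641, plus strand) and *C53B4.9* (chrIV:8994648-8994747, plus strand) show a gene with the pair, the strongest gene without it and the unmarked gene.
Y69A2AR.36: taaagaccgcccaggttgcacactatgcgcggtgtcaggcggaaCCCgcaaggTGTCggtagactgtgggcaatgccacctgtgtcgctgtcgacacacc
F38E11.10: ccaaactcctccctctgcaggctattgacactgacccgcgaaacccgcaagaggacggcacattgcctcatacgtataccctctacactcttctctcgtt
C53B4.9: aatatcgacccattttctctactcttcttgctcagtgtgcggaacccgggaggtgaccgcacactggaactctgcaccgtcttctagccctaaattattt
CGGAACCC, a word whose last 3 bases are the CCC of the pair where both occur, was found on either strand in 6 of the 11 U5 genes, in 5 of the 22 U6 genes, in the U4 gene and in 0 of 19 U2 genes. Over the 74 genes it occurred in 14 (18.9%), against 0.166% of all genes. The word was chosen because it had been seen in earlier results of these data, so its excess is not independent of them. *C53B4.9* holds it, so the word was not limited to marked genes.

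U2 genes were marked with lower signals and less regular positions. *Y57G11C.35*, in an intron of *Y57G11C.5* on its strand (IV), had 656, with 399.9 and 246 in replicates 1 and 2 and its summit 30 bases upstream. *F08G2.10*, outside protein-coding genes (II), had 299, with 165 and 133 in replicates 1 and 2. *F08G2.11*, in an intron of *F08G2.8* (II), had 204, with 118 and 87.4 in replicates 1 and 2. The strongest U2 gene thus had more than 3 times the signal of the third. *F11A5.14* (V) had 168, with 92.1 and 82.4 in replicates 1 and 2. *F08G2.9* (II) had 133, with 86.6 and 42.8 in replicates 1 and 2, and *C47F8.9* (I) had 111, with 39.98 and 43.6. At both *F08G2.9* and *C47F8.9* the summit was nearer to another gene. It lay 71 bases from the 5′ end of *F08G2.9* and 57 bases from that of *ins-37*, and 88 bases from the 5′ end of *C47F8.9* and 61 bases from that of the noncoding RNA gene *C47F8.10*. The other 7, *F56H6.14*, *Y54G9A.8*, *F56H6.15*, *R05D7.6*, *F56H6.16*, *W04G5.11* and *Y47H9A.2*, had 55.4 to 95.1, and the median over all 13 was 95.1.

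Summits of U2 genes in the thresholded list lay upstream at 6 of 13 genes, 5 to 50 bases from the 5′ end. They lay downstream at 7, by 26 to 184 bases. The median was 26 bases downstream, but it was -11 in replicate 1 and -35 in replicate 2. Of these 7, a replicate placed the summit upstream at *F08G2.11*, *F08G2.9*, *C47F8.9* and *R05D7.6*. At *F56H6.14*, *F56H6.16* and *W04G5.11* every replicate entry was downstream. *Y54G9A.8*, upstream in the thresholded list, was downstream in replicate 1. The members nearest the limit of 200 bp were *W04G5.11*, with its summit 184 bases downstream and a signal of 61.3, and *F56H6.16*, 165 bases downstream with 66.9. Of the genes without a thresholded summit inside the limit, *C53D6.16* had the nearest one, at -1524 bases. That summit is the one already counted for *C53D6.12*. In the replicates the summits of the same U2 gene were 0 to 190 bases apart with a median of 42, against 14.5 for U5 genes and 19 for U6 genes. Of the 8 summits over all families that lay at the centre of their interval, to within a base, 6 were at U2 genes. All 6 had an interval of 380 bases, a width that 59.96% of all thresholded peaks share. The share of centred summits over the whole list was not counted, so this cannot be called particular to U2 genes. U2 genes also had the most repeated flanks of the families, with a median of 40.3% unique 32-base words around the 5′ end, and the part of this in the positions was not tested.

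Of the U2 genes without a thresholded summit, *W07G1.8* had a pooled signal of 37.6, with 18.7 in replicate 1 and 20.5 in replicate 2. *C05G6.4* had 11.9, with 8.22 and 16.9 in replicates 1 and 2, and *W07G1.9* had 11.4, with 5.03 and 6.30. These last values are near the pooled list's median of 11.3. *W07G1.24*, the short gene without an Sm site, had no entry in any list, and neither had *F15H9.5* and *F15H9.6*, 2 copies in introns of *sri-17* and *sri-15* with the same 100 upstream bases.

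The upstream sequences of *Y57G11C.35* (chrIV:14765035-14765134, minus strand) and *F08G2.10* (chrII:13829492-13829591, minus strand), the strongest U2 genes, are shown with that of *T14B4.10* (chrII:6716355-6716454, minus strand). This gene has 92.5% RNA identity to the U2 gene *W07G1.9* without the exact U2 element, and no list had an entry there.
Y57G11C.35: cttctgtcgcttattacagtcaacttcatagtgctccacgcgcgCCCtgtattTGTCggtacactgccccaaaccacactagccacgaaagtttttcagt
F08G2.10: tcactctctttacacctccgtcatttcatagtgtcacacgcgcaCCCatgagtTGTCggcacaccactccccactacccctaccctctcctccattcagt
T14B4.10: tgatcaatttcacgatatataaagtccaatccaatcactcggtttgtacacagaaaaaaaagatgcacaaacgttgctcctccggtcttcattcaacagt
The pair occurred in 18 of 19 U2 genes, always with CCC 56 bases upstream, and all 13 marked U2 genes had it. *C05G6.4* was the gene without it. The word TACCGACA, whose other strand begins with TGTC and so overlaps the pair, occurred on either strand in 14 of 19 U2 genes, 3 of 11 U5 genes, the U4 gene and 0 of 22 U6 genes. Over the 74 genes it was found in 18 (24.3%), against 0.149% of all genes. Like CGGAACCC, it was taken from earlier results of these data.

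*F10D2.13*, in an intron of *ugt-37* on its strand (V), was the U4 gene outside the set listed for chromosome V. It had a thresholded signal of 375, with 200.8 in replicate 1 and 170.3 in replicate 2, and the summits of the replicates lay 4 bases apart. Its signal was between those of the chromosome V genes *C52E4.8*, at 1159, and *K03B8.10*, at 139. Its summit, 50 bases upstream, lay 7 bases downstream of the first base of CCC, and both CGGAACCC and TACCGACA, by its other strand, stood in its upstream sequence (chrV:7142859-7142958, minus strand).
F10D2.13: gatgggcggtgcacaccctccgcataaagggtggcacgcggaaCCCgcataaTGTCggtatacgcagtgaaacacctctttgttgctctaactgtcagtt
Of the 21 genes without a family, 4 were marked. *M163.13*, an RNA gene of 80 bases outside protein-coding genes and the only marked gene on the X chromosome, had a thresholded signal of 544, with 305 in replicate 1 and 257 in replicate 2. It had no Sm site, but a T run at its 3′ end and TATATAA beginning 30 bases upstream, as in U6 genes, and its closest RNA among the known snRNA and spliced leader genes was 55.0% identical. *H27M09.6* (I) had 445, with 273 and 170.0 in replicates 1 and 2, and *C27H5.11* (II) had 122, with 53.8 and 63.6. The RNAs of *H27M09.6* and *C27H5.11* were 97.01% and 96.4% identical to U1 genes, so U1 copies are among the members although the listed U1 genes were set aside. The exact U1 element sought was absent from both, so they had no family. It was also absent from all the listed U1 genes, so the rule could not place U1 copies, and its absence does not set these genes apart. *F56A12.5* (V) had 60.3, with 12.9 and 36.9 in replicates 1 and 2, a summit 156 bases upstream and 196 bases between the replicates' summits. Its summit was 185 bases from the 5′ end of the snoRNA gene *F56A12.6*, and its closest known RNA was 60.4% identical.

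The upstream sequences of *C27H5.11* (chrII:7171742-7171841, plus strand), with the pair, and of *M163.13* (chrX:14476767-14476866, plus strand), with TATATAA and without the pair, are given in the same way.
C27H5.11: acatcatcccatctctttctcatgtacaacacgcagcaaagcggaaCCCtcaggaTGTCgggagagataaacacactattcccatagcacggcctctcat
M163.13: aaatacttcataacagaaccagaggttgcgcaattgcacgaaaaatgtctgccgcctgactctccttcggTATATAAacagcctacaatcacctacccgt
The remaining 17 genes without a family had no entry in any list. By RNA identity of at least 70% they included a U1 copy, *T27E4.11* (99.4% to *T27E4.10*), a U2 copy, *T14B4.10*, a U5 copy, *C53D6.16* (91.8% to *F38E11.11*), the U6 copies *F36A4.23* and *F35C11.9* (80% to *T20D3.12*), and *ZK1251.14*, with 79.1% to the spliced leader gene *sls-2.7*. The other 11 had under 70% identity to any known gene. Of these, *B0213.21*, *B0213.22*, *B0213.23*, *B0213.24*, *T10H4.16* and *T10H4.17* overlap exons of cytochrome P450 genes of the *cyp-34A* group on the opposite strand, in flanks with 99.459% or more unique words. *C35D6.6* overlaps an exon of *C35D6.13* on the opposite strand, and the rest are *C35D6.7*, *C41G6.17*, *F20D1.21* and *F35B3.10*.

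Across the families the pair stood in a narrow band. It occurred in 33 of the 74 genes (44.6%), against 0.492% of all genes, and in all 33 the CCC began 54 to 65 bases upstream. The pair is not particular to these genes. In the classes set aside it occurred in 8 of 11 U1 entries (72.7%), 12 of 30 spliced leader genes (40%) and 1 of 10 SmY genes (10%). A thresholded summit was present at 25 of the 33 genes with the pair, and at 11 of the 41 without it. These groups differ in families: nearly all U2 genes have the pair, while most U6 genes and genes without a family lack it. Most U5 genes were marked with or without the pair. The part of family in this contrast was not tested. Among all annotated genes with the pair, which include these 33 and the genes of the other snRNA classes, 105 of 231 had a thresholded summit (45.5%). The summit lay within 50 bases of the first base of CCC at 16 of the 25, with a median of 25 bases downstream of it. TGTC alone, beginning 57 to 45 bases upstream, was found in 49 of the 74 genes (66.2%), against 4.26% of all genes. CTGTTTCA, the word upstream of many piRNA genes, was absent on both strands from the 100 bases of all 74 genes, while 12.3% of all genes have it. All genes here include the piRNA genes. The share without them was not counted, so the absence cannot be called particular to these genes.

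**Figure D3:**
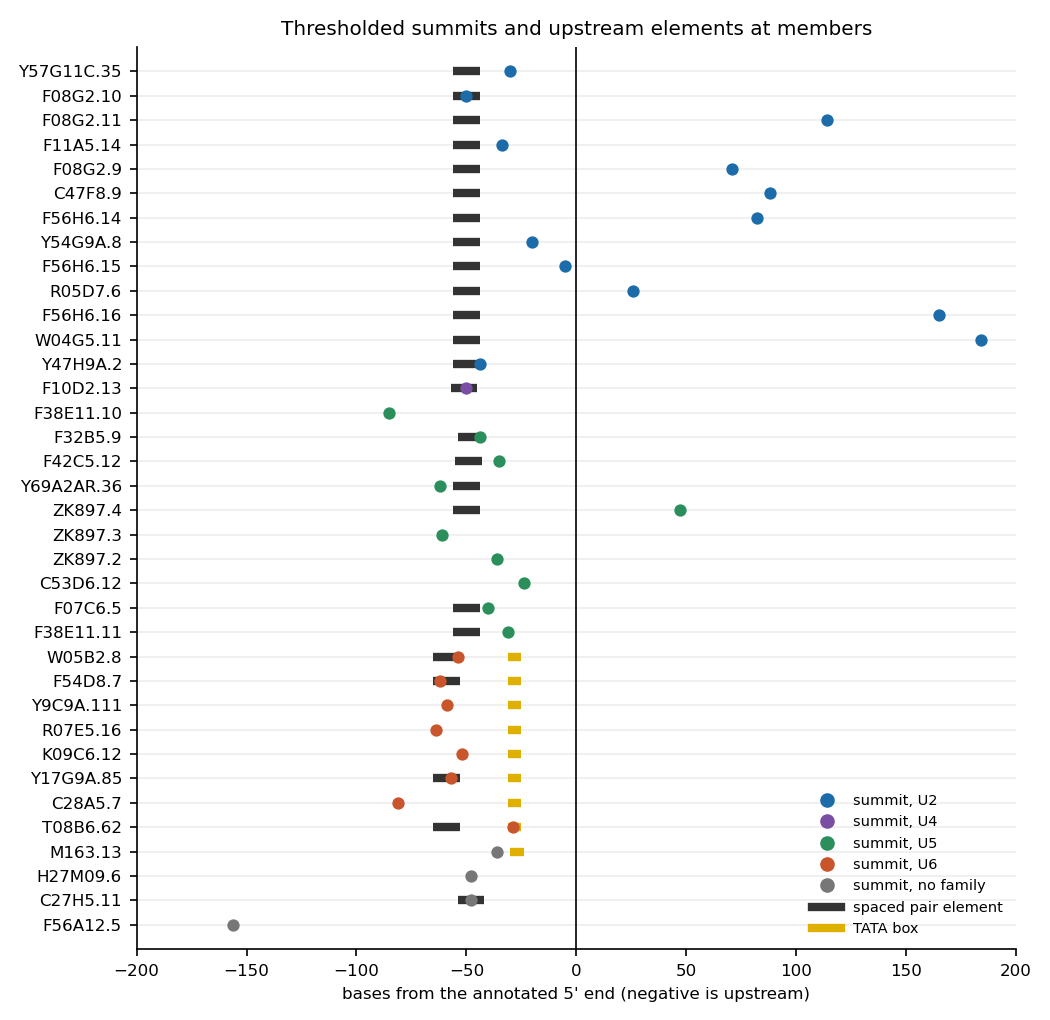
Position of the thresholded summit (points) relative to the annotated 5′ end, in bases, for the 36 genes that have one, with the spaced pair element (dark bars) and the TATA box TATATAA (yellow bars). U6 summits lie 29 to 81 bases upstream, while 7 of the 13 U2 summits lie downstream of the 5′ end. The replicate lists do not place all of these 7 downstream. Of these 7, 6 stand at the centre of an interval of 380 bases, the width of 59.96% of all thresholded peaks.

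Over the 36 genes the median position of the summit was -38 bases from the 5′ end in the thresholded list, -33 in replicate 1 and -41 in replicate 2. The summit lay upstream at 28 genes, within 100 bases upstream at 27, and inside the RNA at 8. The interval of the peak covered the 5′ end at 35 of the 36 genes, *F08G2.11* being the exception, and intervals were 146 to 815 bases wide. The summits of the replicates lay within 50 bases of each other at 26 of 35 genes. As positions are known no better than this, single summits cannot be placed on 1 element rather than its neighbour.

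Because the RNAs are near copies of each other, the assignment of peaks to single genes is uncertain at many of them. Of the 74 genes, 25 had at least 80% of the 32-base words in the 401 bases around the 5′ end at a single place in the genome, and 9 of these 25 had a thresholded summit (36%), with a median signal of 375. Of the other 49 genes, 27 had one (55.1%), with a median of 168. These groups differ in families: 5 of 6 U5 genes with mostly unique words were marked and 5 of 5 others, 0 of 1 U2 genes and 13 of 18 others, 0 of 2 U6 genes and 8 of 20 others, and 3 of 15 genes without a family and 1 of 6 others. The 9 were the U5 genes *F32B5.9*, *F42C5.12*, *Y69A2AR.36*, *ZK897.3* and *C53D6.12*, the U4 gene *F10D2.13*, and *M163.13*, *H27M09.6* and *F56A12.5*. By family the median share of unique words was 40.3% for U2, 80.3% for U5 and 68.9% for U6. In the 200 bases upstream of the 5′ end the medians were 86.4% for U2, 100% for U5 and 85.8% for U6, but single copies were far lower, such as *K09B11.16* with 6.51% and *K09B11.11* with 8.28%.

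Before the 5′ end, uniqueness moved with marking in the U6 family. All 8 marked U6 genes had 85.8 to 100% unique words there, as did 4 of the 14 unmarked ones, while the other 10 had 6.51 to 70.4%. Over the 401 bases, genes with mostly repeated and with mostly unique words occurred on both sides. *F15H9.5* and *F15H9.6*, with 0% unique words, and *T27E4.11*, with 10.8%, had no entry, yet *R05D7.6*, with 11.9%, had a thresholded signal of 76.3. At the other end, *B0205.15* and *F32D1.12* of the U6 family had 98.4% and 81.1% unique words and no entry. How reads with several places in the genome were treated is not given in the sources used here, so its part in the counts of marked genes was not tested.

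**Figure D4:**
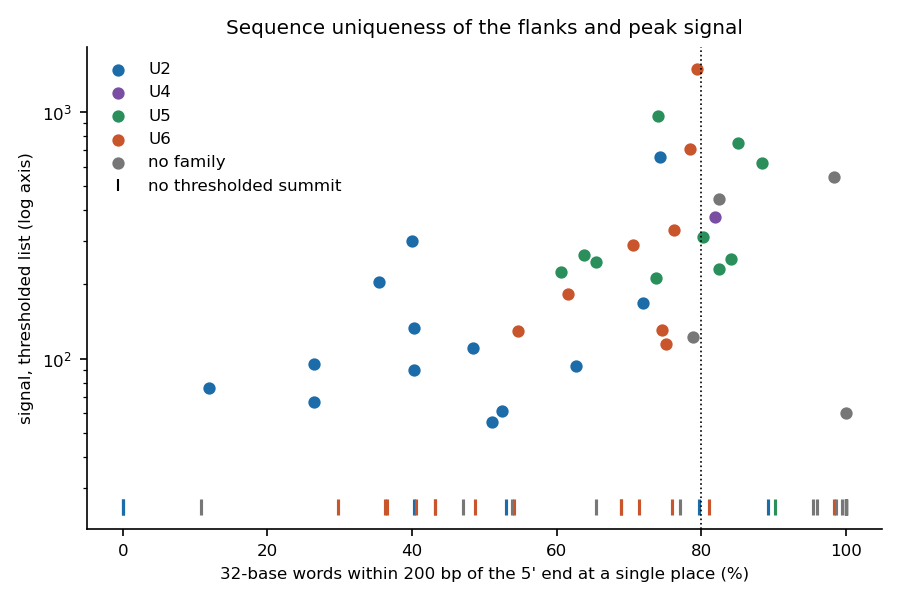
Thresholded signal on a log axis against the percentage of 32-base words around the 5′ end that occur at a single place in the genome, by family, with ticks at the bottom for genes without a thresholded summit and a dotted line at 80%. Points to the right of the line are the 9 genes with mostly unique flanks, whose signals run from 60.3 to 749.

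The genes were also counted by their place in protein-coding genes. Of the 25 members outside protein-coding genes 15 were marked, as were 15 of 25 in introns on the host's strand, 4 of 14 in introns on the opposite strand, 2 of 3 overlapping exons on the same strand and 0 of 7 overlapping exons on the opposite strand. Within the U6 family 1 of 10 genes in introns on the opposite strand was marked, *T08B6.62*, against 4 of 9 in introns on the host's strand. The host, its copies and the upstream elements go together in these genes and cannot be told apart.

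Few of the genes listed for snRNA transcription, snRNA processing and snRNP or LSm proteins were marked. The 49 listed genes were *tbp-1* and those for SNAPc subunits, the Integrator complex, which processes the 3′ ends of snRNAs, and snRNP and LSm proteins. Of these, 45 were found by symbol and 3 had a thresholded summit (6.67%, against 2.59% of protein-coding genes). *snpc-4* itself, which the transgene also carries, had a thresholded summit of 124 at -190 bases, near the limit of 200 bp. The entry nearest its 5′ end in the pooled list was another one, with 31.2 at 9 bases downstream, and the nearest in replicates 1 and 2 had 17.2 and 23.9. *ints-4*, for an Integrator subunit, had 74.2, with 34.5 in replicate 1 and 23.6 in replicate 2, and *snpc-3.4*, for a SNAPc subunit, had 69.2, with 39.7 and 35.9. Each was below the median of 218 over the 36 marked snRNA genes. The pooled list, labelled as peaks and background, had an entry at 20 of the 45, against 30.3% of all annotated genes. Its share over protein-coding genes was not counted.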

How the data were processed

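SNPC-4 was mapped by ChIP-seq in 2 replicates of 1 group. The authors deposited narrowPeak lists on ce11: a thresholded list and, as the input of the IDR step, 1 list of the pooled reads and 1 of each replicate. The last 3 are labelled as peaks and background. The signal of each entry is the deposited enrichment value of the authors' peak caller, and levels were compared within a list. Values of the 2 replicate lists, whose scales may differ, stand side by side for single genes, with the share of genes higher in replicate 1. No source used here names the peak caller, the aligner or the IDR threshold. The control experiment was not analysed here, and the depth is unknown, so no limit of detection can be given. The deposited ce10 lists were not used here.

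Gene positions and biotypes came from Ensembl release 115 (WBcel235), and symbols and sequences from RefSeq, matched by WormBase identifier. Each gene took the nearest summit within 200 bp of its 5′ end. Families came from exact elements in the RNA, and closest relatives from global alignment. Words were counted in the 100 bases before each 5′ end. Uniqueness was the share of 32-base words around the 5′ end with a single place in the genome, both strands counted. Python 3.11.15, pandas 2.3.3, numpy 2.4.6, scipy 1.17.1 and Biopython 1.88 were used, and the assignment of summits was tested on simulated data. Within each family, full values are given for the 6 genes with the highest thresholded signal, the 4 under the threshold with the highest pooled signal, those nearest the 200 bp limit and those whose summit is nearer another gene, and for any family of at most 5 members. The members and lists were chosen with earlier results of these data known, and the words CGGAACCC and TACCGACA had been seen in those results. The spaced pair, the TATA box, the single TGTC, the T run in the gene's last 6 bases and the 10 after it, identity between RNAs and the set with at least 80% unique words were added after the sequences or values had been seen.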

Additional observations from a re-analysis of the deposited data

How the results depend on the processing

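Of 62 alternative values, 56 stayed within the limits set for a change and 6 did not. The limits were wide: for counts, 36 genes with mostly unique words of 50 bases against 25 passed as unchanged. For medians the limit was the standard deviation of the 2 medians without a replicate, which are themselves among the alternatives. With only genes of at least 80% unique words, 9 genes had a thresholded summit (36 with all genes). With all entries of the pooled list, 13 U6 genes had one (8 in the thresholded list). With families by RNA identity, 2 genes without a family had one (4 by exact element). CTGTTTCA was found in 1 of the 74 genes within 250 bases (0 within 100). From the 2345 strongest entries of a single replicate list, the count was 35 without replicate 1, which lost *W04G5.11*, and 35 without replicate 2, which lost *F56A12.5*. The family counts without a replicate were 12 to 13 for U2, 10 for U5, 8 for U6 and 3 to 4 for no family. The median signal was 88.6 without replicate 1 and 125 without replicate 2, on the scale of the replicate lists (218 in the thresholded list), and the median distance was -41 and -35. A window of 100 bp lost *F08G2.11*, *F56A12.5*, *F56H6.16* and *W04G5.11*, one of 500 bp changed no count, and the upper part of the list by signal, 1173 peaks, lost *F56A12.5* and *Y47H9A.2*. No paired analysis was possible because there was only 1 group. Repeated flanks limit which copy a peak belongs to, and the unknown depth leaves a gene without an entry undecided.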
